A study of Mus musculus with 2 samples.

Results

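The sites described here are the CTCF binding sites of newborn mouse forebrain that fell inside the antigen receptor loci, the stretches of DNA from which B and T cells assemble their receptors. They were taken from the authors' optimal peak list, made of peaks kept for their reproducibility by the irreproducible discovery rate (IDR), and a peak was a member when its summit lay in 1 of 4 windows on the mm10 assembly. The windows were chr12:113250000-116010000 for the immunoglobulin heavy chain locus Igh, chr6:67550000-70730000 for the kappa light chain locus Igk, chr14:52420000-54230000 for the T cell receptor alpha and delta loci, which share 1 stretch and are called Tcra and Tcrd, and chr6:40890000-41560000 for the T cell receptor beta locus Tcrb. Of 56462 optimal-list sites on the placed chromosomes, 60 were members: 29 in Tcra and Tcrd, 18 in Igk, 11 in Tcrb and 2 in Igh.

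Each receptor locus holds a long row of V (variable) segments, followed by J (joining) segments, in some loci with D (diversity) segments before them, and by C (constant) segments. Developing lymphocytes join 1 segment of each kind by V(D)J recombination, which cuts at a recombination signal sequence beside each segment. The loci of brain cells are not rearranged. CTCF, an architectural protein with many zinc fingers, recognises a directional DNA motif and stops cohesin as it extrudes chromatin loops, and loops tend to form between sites whose motifs face each other. In lymphocytes, CTCF sites are known for their part in loop formation at these loci. They include the sites of the control region IGCR1 between V and D segments of Igh, the sites in the interval between V and J segments of Igk, and the sites beside the enhancer beyond the C segment of Tcra.

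The series held 1 group of 2 CTCF ChIP-seq libraries, called replicate 1 and replicate 2, from forebrain of B6NCrl mice on postnatal day 0. No allele, agent or second condition was given, sex was not collected, and the tissue was pulverized and pooled from several dissections. Both libraries cite the same biosample and donor, and any difference between them may therefore be technical. Peak lists hold no expression, so the tissue could not be checked by marker genes, and the lists do not tell a weak site in many cells from a strong site in few cells. Strength is given as the signal value of each peak, the authors' own number of unstated scale. The sources used here do not give the read depth. The CTCF core motif was searched on both strands within 50 bp of each summit with at most 2 mismatches over its 14 bases.

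The sequences below show both Igh sites, the Igk sites between V and J, and strong sites of the T cell receptor loci, to which the results below refer. Each is 60 bases of the RefSeq copy of GRCm38 (mm10), printed 5′ to 3′ on the strand of the motif, and the capitals mark the 14 bases matched to the CTCF core motif. The first pair is the whole Igh set. The next 4 lie between the last V segment and the first J segment of Igk. They are followed by the 5 strongest sites of Tcra and Tcrd and the 2 strongest of Tcrb.
Igh between D segments, chr12:113487865-113487924, plus strand: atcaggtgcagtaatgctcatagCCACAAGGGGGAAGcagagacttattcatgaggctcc
Igh beside Ighv11-1, chr12:113981782-113981841, minus strand: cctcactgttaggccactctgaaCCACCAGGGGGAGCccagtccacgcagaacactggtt
Igk interval, farthest from J, chr6:70709445-70709504, minus strand: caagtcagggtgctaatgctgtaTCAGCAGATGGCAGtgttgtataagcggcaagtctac
Igk interval, next, chr6:70709852-70709911, minus strand: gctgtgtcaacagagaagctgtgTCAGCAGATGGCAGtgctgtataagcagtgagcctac
Igk interval, next, chr6:70713289-70713348, plus strand: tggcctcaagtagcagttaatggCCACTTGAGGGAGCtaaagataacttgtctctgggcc
Igk interval, nearest to J, chr6:70714379-70714438, plus strand: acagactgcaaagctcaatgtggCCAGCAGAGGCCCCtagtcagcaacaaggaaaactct
Tcra and Tcrd before Trdv4, nearer, chr14:54064690-54064749, plus strand: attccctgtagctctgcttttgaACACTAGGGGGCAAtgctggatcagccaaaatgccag
Tcra and Tcrd before Trdv4, farther, chr14:54059941-54060000, plus strand: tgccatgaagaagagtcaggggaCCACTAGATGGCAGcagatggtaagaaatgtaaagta
Tcra and Tcrd before Trav17, farther, chr14:53804402-53804461, minus strand: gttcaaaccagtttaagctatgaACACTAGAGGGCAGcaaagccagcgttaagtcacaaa
Tcra and Tcrd before Trav17, nearer, chr14:53806379-53806438, plus strand: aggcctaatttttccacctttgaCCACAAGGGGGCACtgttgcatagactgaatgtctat
Tcra and Tcrd beyond Trac, chr14:54228062-54228121, plus strand: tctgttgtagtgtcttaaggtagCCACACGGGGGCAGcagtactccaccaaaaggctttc
Tcrb beside Trbv14, chr6:41137150-41137209, plus strand: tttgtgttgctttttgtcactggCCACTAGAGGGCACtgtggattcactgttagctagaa
Tcrb beyond Trbc2, chr6:41556549-41556608, minus strand: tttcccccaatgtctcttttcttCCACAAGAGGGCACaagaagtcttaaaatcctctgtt

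A second set shows motif matches of Igh that carried no optimal-list site, chosen after their values were seen because they match the motif without a mismatch and lie just past the ends of V segments. Ighv5-2 and Ighv2-2 are among the V segments nearest to the D segments, and the match beside Ighv5-17 had the strongest weak peak of this set. The capitals again mark the match.
Igh past Ighv5-2, chr12:113578409-113578468, minus strand: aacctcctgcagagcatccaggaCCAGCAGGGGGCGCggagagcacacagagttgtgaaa
Igh past Ighv2-2, chr12:113588170-113588229, minus strand: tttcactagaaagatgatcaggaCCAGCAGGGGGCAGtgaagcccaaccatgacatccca
Igh past Ighv5-17, chr12:113859054-113859113, minus strand: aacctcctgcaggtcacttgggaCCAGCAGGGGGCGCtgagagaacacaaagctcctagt

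The receptor loci were unequally bound. Tcrb held 16.4 sites per Mb and Tcra and Tcrd 16.0 per Mb, Igk held 5.66 per Mb, and Igh held 0.725 per Mb, against 21.3 per Mb over the genome. The exact Poisson 95% intervals, which cover counting error only, were 8.20 to 29.4 per Mb for Tcrb, 10.7 to 23.01 for Tcra and Tcrd, 3.36 to 8.95 for Igk and 0.0878 to 2.62 for Igh. The intervals of the T cell receptor loci overlapped each other and held the genome value, whereas that of Igk lay below that of Tcra and Tcrd, overlapped that of Tcrb and lay below the genome value. The interval of Igh lay below that of Igk. Chromosome 12, which carries Igh, had 19.2 sites per Mb, chromosome 6 had 21.2 and chromosome 14 had 18.2. The Igh window had 1 stretch of 2028 kb, from its second site to its far end, with no optimal-list summit, and the longest such stretch was 750.0 kb in Igk, 390.8 kb in Tcra and Tcrd and 293.6 kb in Tcrb.

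Sites were dense again just outside. In the 250 kb beyond each end of the windows, 94 sites lay in the 8 flanks, and 7 of the 8 flanks were denser than their own window and denser than the genome. The flank below the Igh window, past its C segments, held 30 sites (120.0 per Mb), and the flank above it, past the last V segments, held 8 (32 per Mb). The exception was the flank below Tcrb, with 2 sites (8 per Mb). The first sites outside the Igh window stood 25600 bp below it, with a signal value of 25.8, and 18298 bp above it, with a signal value of 119. For Tcra and Tcrd the first site outside the upper end, 9243 bp away, had a signal value of 267, whereas the first inside that end had 47.3. For Igk the first outside the lower end had 20.3 and the first outside the upper end 69.6, and for Tcrb these values were 32.1 and 215.

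**Figure D1:**
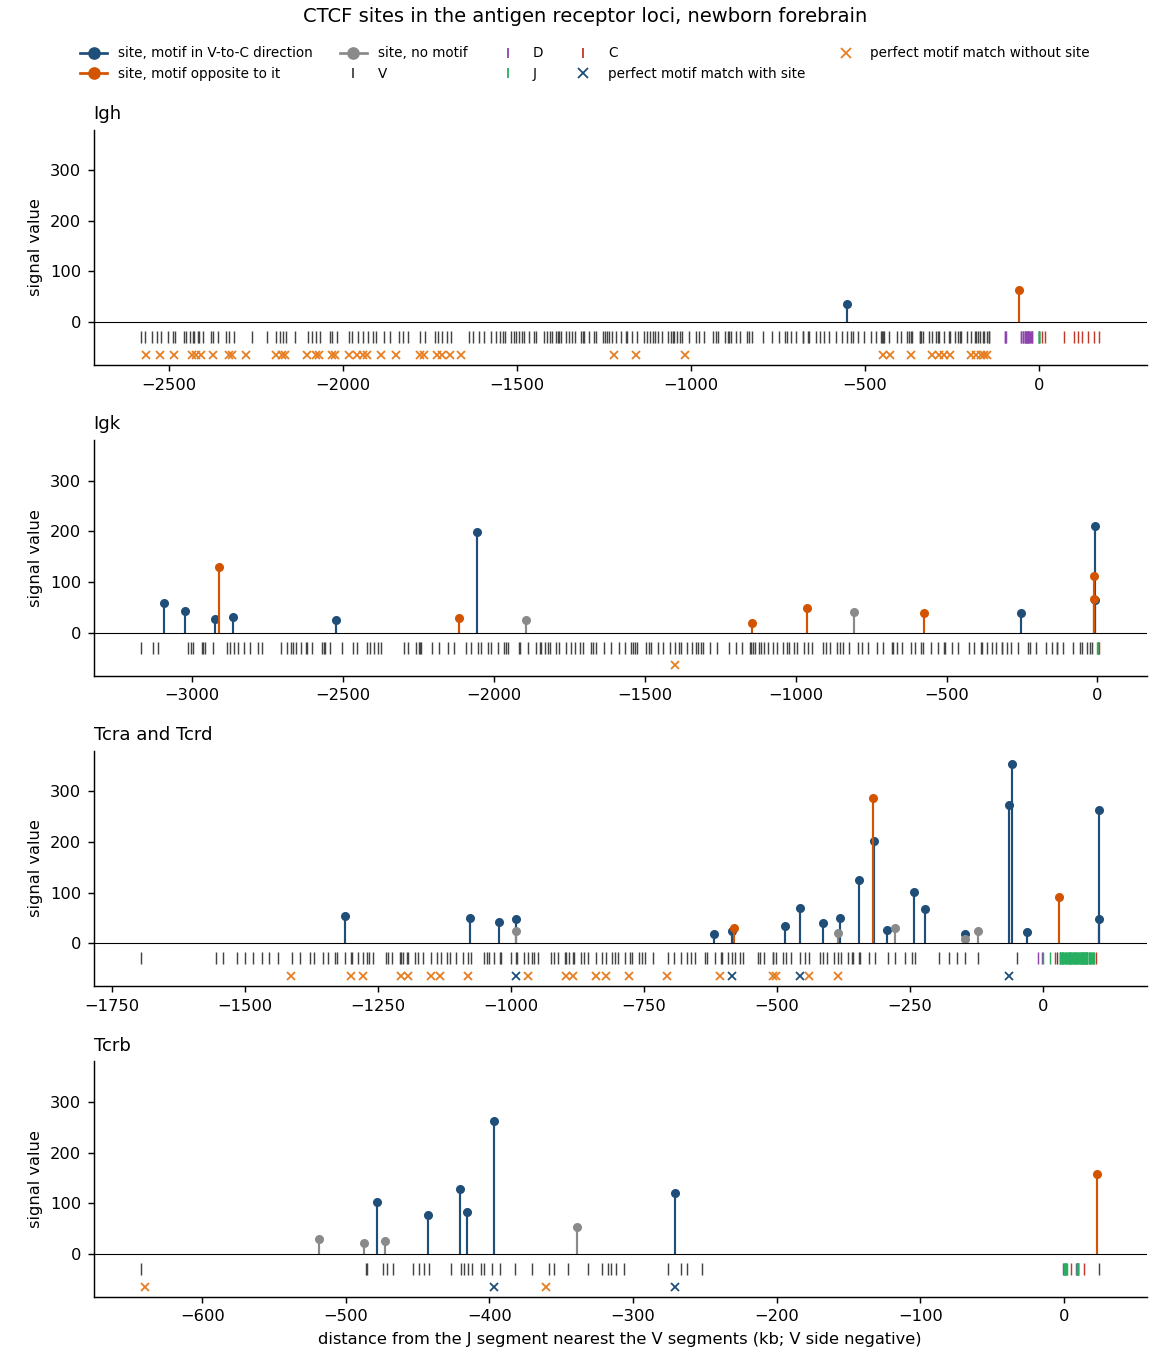
Optimal-list CTCF sites of the receptor loci, with distance from the J segment nearest the V segments on the x axis (kb, V side negative) and signal value on the y axis; colours give the motif direction, ticks under the line the V, D, J and C segments, and crosses the motif matches without a mismatch. Igh has 2 sites above a row of 45 crosses without a site, Tcra and Tcrd have 29 sites, and the highest bar, 354, stands in Tcra and Tcrd.

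As a set the members were weaker than the list they came from. Their median signal value was 47.7, against 64.3 over the whole optimal list, and their median rank was the 40.3th percentile of that list. Within the members the median was 82.1 in Tcrb, 47.0 in Tcra and Tcrd and 41.9 in Igk, and the pair in Igh had 62.8 and 35.7. The whole range was 7.27 to 354, and 2 members, both in Tcra and Tcrd, were in the strongest 10% of the list. An IDR score of 1000, the highest given, was held by 42 members (70%), against 77.05% of the list. Of the 60 members, 53 overlapped a peak of the conservative list, and 87.4% of all optimal-list peaks did. All 7 members that did not overlap a conservative peak lay in Tcra and Tcrd. The conservative list itself placed 62 sites in the windows, more than the 60 of the optimal list, and some of its sites there were absent from the optimal one.

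Most members carried the motif. It was found at 49 of the 60 members (81.7%, Wilson 95% interval 70.1% to 89.4%), and the background is 67.2% of the whole list. By locus these were 24 of 29 in Tcra and Tcrd, 16 of 18 in Igk, 7 of 11 in Tcrb and both in Igh. The 11 members without the motif had a median signal value of 24.2 and none was above 52.6. At equal motif quality the medians of the members were lower than those of the list. With no mismatch the median was 94.7 (6 members), against 207 over the list, and with 1 mismatch 53.9 (19 members), against 109.5. The 6 members without a mismatch were unlike each other. They had 273, 262 and 120 where the 32 bases around the match occur 1 time in the genome. Where these bases occur 3 to 5 times, the members had 69.1, 47.0 and 23.2. With 2 mismatches the medians were closer, 54.3 for 24 members and 59.8 for the list, and with more they were 24.2 for the members and 38.3 for the list. Members inside the V arrays had a median of 41.2 (50 sites, 39 with the motif), and the 10 members elsewhere had a median of 78.2, with the motif at every one.

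In the T cell receptor loci most site motifs ran in the direction of the segments, as did most motif matches in the DNA there. In Tcra and Tcrd, 21 of the 24 motifs ran in the V-to-C direction, which is the plus strand there, and in Tcrb 6 of 7 did. Of all matches with at most 1 mismatch, 74 of 111 in Tcra and Tcrd and 13 of 21 in Tcrb were on the plus strand. Among such matches with a site, 10 were plus and 3 minus in Tcra and Tcrd, and 4 plus and 1 minus in Tcrb. Igk differed, with 9 motifs on the plus strand, which runs towards J, and 7 on the minus strand. The V segments of Igk themselves lie on either strand. With the pair in Igh, which ran in opposite directions, 28 of 33 motifs outside Igk ran in the V-to-C direction.

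Igh had its sites at the D segments and at a single V segment. The stronger one, at chr12:113487759-113488058, had a signal value of 62.8 and stood between Ighd1-1, 5717 bp away, and Ighd3-1, 37404 bp away, in intergenic DNA 1602 bp from the start of Adam6b, a sperm fertility gene. Its signal values were 28.7 in replicate 1 and 34.5 in replicate 2, and its motif, with 2 mismatches, lay on the plus strand, against the V-to-C direction of this locus. IGCR1 is known from this part of Igh, but the annotation used does not mark it. The second site, at chr12:113981634-113981933, stood 95 bp past the 3′ end of Ighv11-1 with a signal value of 35.7, and of 14.3 in replicate 1 and 22.4 in replicate 2. Its motif had 1 mismatch and ran in the V-to-C direction. Both Igh sites were in the conservative list, whose only other site in this window had a signal value of 19.4 and stood at the match past Ighv5-17 printed above.

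Beyond the C segments of Igh, outside the window, stood a tight row of strong sites. Within 60 kb of its lower end lay 11 sites, and 10 of them fell within 8284 bp. The signal values of the 11 ran from 25.8 to 369 with a median of 113, so the median there was above both values inside the window. The strongest had 187 in replicate 1 and 179.9 in replicate 2. Of the 10 with a motif, 9 had it on the plus strand, which runs from there towards the V segments, and 1 on the minus strand. A cluster of CTCF sites past the C segments, called the 3′CBEs, is known from lymphocytes.

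The sequence of Igh was rich in the CTCF core motif, and almost none of it carried a site in this tissue. Igh held 45 matches without a mismatch, 16.3 per Mb, against 2.62 per Mb over the genome, and all 45 were on the minus strand, the V-to-C direction. None of the 45 had an optimal-list summit within 50 bp, for which the Wilson 95% upper limit is 7.87%, whereas 77.2% of the 6945 such matches of the genome had one. With 1 mismatch allowed, 1 of 152 matches in Igh had a site (0.658%, interval 0.116% to 3.63%), against a background of 31.2% of 66933 matches. Of those 152 matches, 131 were on the minus strand.

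Repeated sequence can leave a site without uniquely placed reads. The matches were therefore also counted where the 32 bases around them occur once in the genome. Only exact copies were counted, so a match with near-identical copies can pass as unique. In Igh 32 of the 45 matches without a mismatch were unique in this sense, and 0 of the 32 had a site (upper limit 10.7%), against 85.7% of 6196 unique matches of the genome. The 45 matches used 8 different 14-base cores. Elsewhere in the genome the same 8 cores occurred 1212 times and had a site at 953 (78.6%, interval 76.2% to 80.9%), and at 81.0% of the unique ones. None of the 45 was in soft-masked repeat sequence. The part of read placement in the matches without a site was not tested. In the authors' pooled list, 7 of the 45 had a summit, with signal values from 5.74 to 19.4, against 84.3% of such matches over the genome. The highest of these stood past Ighv5-17 (19.4) and past Ighv2-3 (15.9).

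The Igh matches kept a set place beside some V families. Of the 45, 12 lay within 1 kb of the 3′ end of a V segment, and their centres were 62.5 to 70.5 bp past it, which puts them on the far side of the recombination signal sequence. They belonged to 6 segments of the Ighv5 family and 6 of the Ighv2 family. The other 33 lay farther away, and 30 of the 45 had a member of the large Ighv1 family as nearest V segment. With 1 mismatch allowed, 10 Ighv5 and 8 Ighv2 segments had a match at this place, with 0 sites among them. Segments of other families had one there as well, among them Ighv4-1, Ighv7-1, Ighv6-3 and Ighv10-1. The place was thus not particular to Ighv5 and Ighv2. The only bound match, that of Ighv11-1, stood at 67.5 bp.

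**Figure D2:**
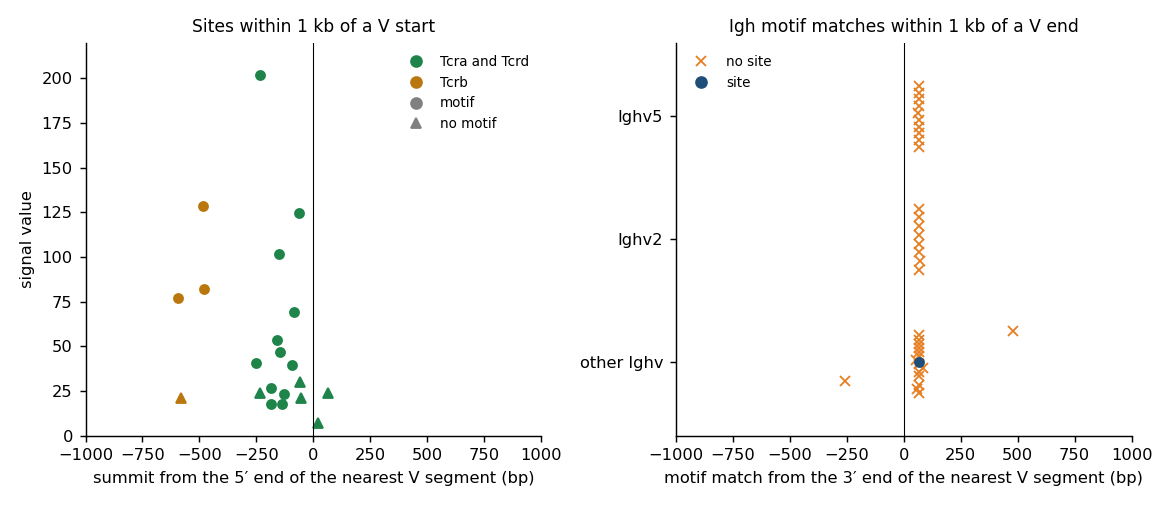
Left, signal value (y axis) of Tcra and Tcrd and of Tcrb sites by distance of the summit from the 5′ end of the nearest V segment (x axis, bp, negative upstream). Right, the 35 of 152 Igh motif matches with at most 1 mismatch that lie within 1 kb of the 3′ end of a V segment, by distance from the end of the nearest one, with 1 row per family group; all but 1 are crosses without a site, and most stand in a column near 67.5 bp.

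The share of motif matches with a site differed among the other loci. With at most 1 mismatch, 6 of 84 matches had a site in Igk (7.14%, interval 3.31% to 14.7%), 13 of 111 in Tcra and Tcrd (11.7%, 6.97% to 19.0%) and 5 of 21 in Tcrb (23.8%, 10.6% to 45.1%), against the background of 31.2%. The interval of Tcrb held that value, and those of Igk and of Tcra and Tcrd lay below it. Among matches with a unique 32-base surround the shares were 15.6% in Igk, 29.0% in Tcra and Tcrd and 33.3% in Tcrb, and 39.8% over the genome. The intervals of Tcra and Tcrd (16.1% to 46.6%) and of Tcrb (15.2% to 58.3%) held that value, and the interval of Igk (6.86% to 31.7%) and that of Igh (0.186% to 5.72%) did not. Over all windows, 20 of 173 unique matches had a site (11.6%), and 5 of 195 repeated ones (2.56%), against 2.81% of the repeated matches of the genome. In Tcra and Tcrd 80 of the 111 matches were repeated, and 1 of its 24 matches without a mismatch was unique. How the authors' processing treated reads from such copies is unknown.

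**Figure D3:**
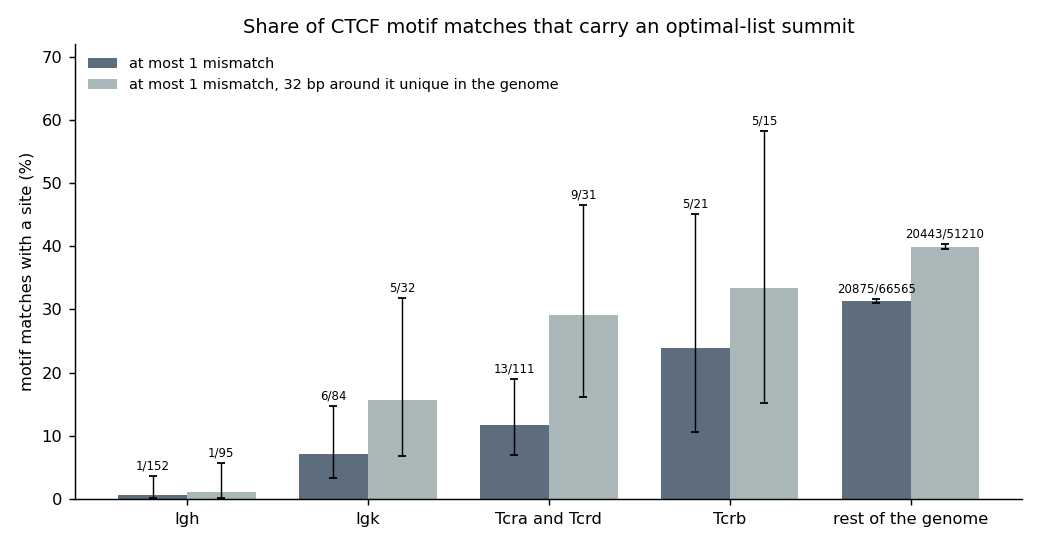
Share of CTCF motif matches with at most 1 mismatch that had an optimal-list summit within 50 bp (y axis, percent), by locus and for the rest of the genome; bars are Wilson 95% intervals and numbers are sites over matches. Igh stands at 0.658% for all matches and 1.05% for unique ones.

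Igk had a row of sites in the short interval between V and J. Of its 18 sites, 4 stood between Igkv3-1, the last V segment, and Igkj1, the first J segment, where the control elements Cer and Sis are known in B cell precursors. Going towards J, the first 2 of these peaks, 422 bp apart, had signal values of 112 and 65.9, both with the motif on the minus strand, pointing back to the V segments, and with the same 14-base core. The next 2, 1097 bp apart, had 64.1 and 211, both on the plus strand, pointing to J. The first had 68.5 in replicate 1 and 43.9 in replicate 2, the second 35.5 and 28.1, the third 30.9 and 31.8, and the fourth 114 and 96.6. The fourth was thus the strongest of Igk in both libraries, and it stood 8152 bp before Igkj1.

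Inside the Igk V array lay 14 sites, whose median was 39.1 in signal value, and none lay within 1 kb of the 3′ end of a V segment. The strongest was at chr6:68668524-68668707, 2554 bp before the pseudogene Igkv2-95-1, with 198 (109 in replicate 1, 89.7 in replicate 2). Next came a site at chr6:67812613-67812762, in intergenic DNA between V segments, with 129 (68.7 and 60.2). Both had 2 mismatches, the stronger on the plus strand and the other on the minus strand. The longest empty stretch, 750.0 kb, lay in the middle of the array. The nearest approach to a V segment's 3′ end was 2639 bp at Igkv4-57, followed by 2838 bp at Igkv13-56-1, 3275 bp at Igkv2-95-1, 3469 bp at Igkv17-127 and 3606 bp at Igkv8-28.

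Tcra and Tcrd held the strongest members. The highest signal value of all, 354, was at chr14:54064596-54064856, 10194 bp before Trdv4, a delta V segment close to the D segments. It had 187 in replicate 1 and 168 in replicate 2. A second site 4753 bp farther from Trdv4 had 273 (139 and 132), and both had plus-strand motifs, with 2 mismatches and none. This stretch between the last alpha V segments and the delta V, D and J segments holds, in thymocytes, a known pair of CTCF sites named INT1 and INT2, which the annotation used does not mark. A weak site, with 21.6, stood between Trdv4 and Trdd1, and it had 6.42 in replicate 1 and 14.96 in replicate 2.

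Around the J and C segments of Tcra stood 3 further sites. One, with 90.5 (52.1 in replicate 1 and 36.6 in replicate 2), lay between Trdv5 and Traj61, 1973 bp before this first J segment, and its motif was on the minus strand, pointing back to the V segments. The region in front of the first J segments is known for the promoter TEA, which starts transcription through the J array. Beyond Trac, the C segment, stood a site of 263 (136 and 126), 3891 bp past its end, and 199 bp farther one of 47.3, which had 34.2 in replicate 1 and no summit within 100 bp in replicate 2. Both had plus-strand motifs, pointing away from the locus. The enhancer of Tcra lies past Trac and is known for CTCF sites near it.

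A pair of strong sites also stood before Trav17, inside the alpha V array. The one 2204 bp before Trav17 had 286 (150.3 in replicate 1, 136 in replicate 2) with a minus-strand motif. The one 234 bp before Trav17 had 202 (96.2 and 105) with a plus-strand motif, and the summits were 1970 bp apart. Their motifs therefore pointed away from each other.

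Some of the 136 V segments of Tcra and Tcrd had a CTCF site at a set place just upstream. Of the 29 sites, 15 lay 53 to 252 bp before the 5′ end of a V segment, with a median of 145 bp, which is where V promoters lie. The motif was found at 12 of the 15, and at all 12 it was on the strand of the V segment, the plus strand. Most motif matches of this locus lie on the plus strand too. They often lie near V segments as well, with or without a site. Of the 111 matches with at most 1 mismatch, 67 lay within 1 kb of the 3′ end of a V segment. The median distance of the 111 from the nearest such end was -695.5 bp, negative values being upstream. Of the 111, 13 had a site. The signal values of the 15 sites ran from 17.7 to 202, with a median of 39.8. In Tcrb, 4 of 11 sites stood 482 to 594 bp before a V segment, those of Trbv2, Trbv10, Trbv12-1 and Trbv12-2, and 3 of these 4 had the motif, again on the strand of the V segment. No site of Igk or Igh stood within 1 kb upstream of a V segment. The plot of sites around V segments shows the T cell receptor groups side by side.

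Few V segments had a site within 1 kb of their recombination end, and nearly all of these sites lay on its upstream side. Of 541 annotated V segments, 430 of which were followed directly by CAC, the first bases of the recombination signal sequence, 18 (3.33%, interval 2.12% to 5.198%) had a summit within 1 kb of the 3′ end. For protein-coding genes the share with a summit this near to a transcription start was 36.8%, although this is another kind of position, and from their 5′ ends 20 of the 541 V segments had a summit within 1 kb. By locus these V segments numbered 15 of 136 in Tcra and Tcrd (11.0%), 2 of 35 in Tcrb, 1 of 194 in Igh and 0 of 176 in Igk (upper limit 2.14%). Only the summit at Ighv11-1 lay past the 3′ end. Those in the T cell receptor loci all lay before it, and most are the sites upstream of V segments described above. Segments annotated as genes had a site in 14 of 352 cases and pseudogenes in 4 of 189. Apart from Ighv11-1, the nearest 3′ ends were those of Trav6n-6, with the summit at -393 bp, Trav23, at -504 bp, and Trav8-2, at -516 bp, negative values being upstream. The summits at Trav6n-6, Trav23 and Trav8-2 lacked the motif and had signal values of 23.9, 7.27 and 21.0 in that order. Those at Trav6n-6 and Trav23 belonged to peaks that overlapped a member with the motif. These neighbouring summits were 210 and 207 bp away and had signal values of 47.0 and 17.7. Before Trav8-2 lay a match without a mismatch, but beyond 50 bp of the summit. The −log10 of the q-value at the Trav23 summit without the motif was 0.42. Among V families of 3 or more members, named by the symbol up to its first hyphen, 5 of 27 in Tcra and Tcrd and 1 of 2 in Tcrb had a segment with a site, and none of 11 in Igh or of 15 in Igk did. The Trav3 family had 2 of its 4 members so marked.

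Some copies of V segments gave near-identical sites of unequal strength, and others gave sites of equal strength or no site. The sites before Trav10d and Trav10 shared 59 of 60 bases around the motif and the same core, and their only difference was C41T, counted from 1 at the 5′ end of the 60 bases, with the base of Trav10d first. Their signal values were 53.9 before Trav10d and 18.0 before Trav10, or 27.4 and 9.05 in replicate 1 and 25.3 and 8.63 in replicate 2, so the order was the same in both libraries. The sites before Trav3-3 and Trav3-4 shared 56 of 60 bases and differed in the core by T5A, counted from 1 at the 5′ end of the core with Trav3-3 first. This change takes the core from 0 mismatches to 1, and the signal value was 69.1 before Trav3-3 and 125 before Trav3-4. In replicate 1 these sites had 42.0 and 65.8, and in replicate 2 26.1 and 61.1. Another pair, before Trav16d-dv11 and Trav16, shared 56 of 60 bases and the same core and had 49.4 and 49.3. The 32 bases around the match occur 2 times in the genome for Trav10d and 1 time for Trav10. They occur 3 times for Trav3-3 and 1 time for Trav3-4. The matches before Trav3d-3 and Trav3n-3, whose 32 bases also occur 3 times, had no optimal-list site and no pooled summit. The same held for the match before Trav10n, whose 32 bases occur 2 times. How reads were placed between such copies is unknown, which leaves the signal values of these pairs uncertain. The part of the base changes in them was not tested.
Before Trav10d, chr14:52810755-52810814, plus strand: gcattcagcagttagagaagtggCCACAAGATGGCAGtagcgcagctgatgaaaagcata
Before Trav10, chr14:53505548-53505607, plus strand: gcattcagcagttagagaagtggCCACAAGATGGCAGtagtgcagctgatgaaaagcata
Before Trav3-3, chr14:53665816-53665875, plus strand: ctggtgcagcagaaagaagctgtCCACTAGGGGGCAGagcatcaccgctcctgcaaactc
Before Trav3-4, chr14:53776852-53776911, plus strand: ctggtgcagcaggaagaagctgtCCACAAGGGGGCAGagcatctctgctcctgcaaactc

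In Tcrb the strong sites lay in the V array and at its far end. The strongest, 262, stood 1563 bp past the 3′ end of Trbv14, with 141 in replicate 1 and 120.4 in replicate 2, and its core matched the motif without a mismatch. A site of 159 (81.0 and 76.2) lay between Trbc2, 8228 bp away, and Trbv31, the V segment that sits beyond the C segments in the opposite orientation, 1111 bp past the 3′ end of Trbv31. It was the only Tcrb motif on the minus strand. Sites of 129, before Trbv12-1, of 120.3, before Trbv28, and of 102, before Trbv4, followed. Between the site before Trbv28 and the one past Trbc2 lay 293.6 kb with none, a stretch that includes the D and J segments and both C segments. The flanks of Tcrb and this stretch are known to hold trypsinogen genes, but no site in any window lay within 1 kb of the transcription start of a protein-coding gene.

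The 2 libraries gave the members similar strengths. For 57 of the 60 members both libraries had a summit within 100 bp. The log2 ratio of replicate 1 over replicate 2, centred on the median of the whole list, had a median of -0.08 over these and an SD of 0.44, against an SD of 0.50 over the list. The extremes were -1.42, at the weak site between Trdv4 and Trdd1, and 0.92, at the site before the pseudogene Trdv3 (15.1 in replicate 1 and 6.96 in replicate 2). The remaining 3 were the weaker site past Trac and a pair of overlapping peaks at Trav23, with 17.7 and 7.27, of which replicate 1 had a summit at the first and replicate 2 at the second.

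**Figure D4:**
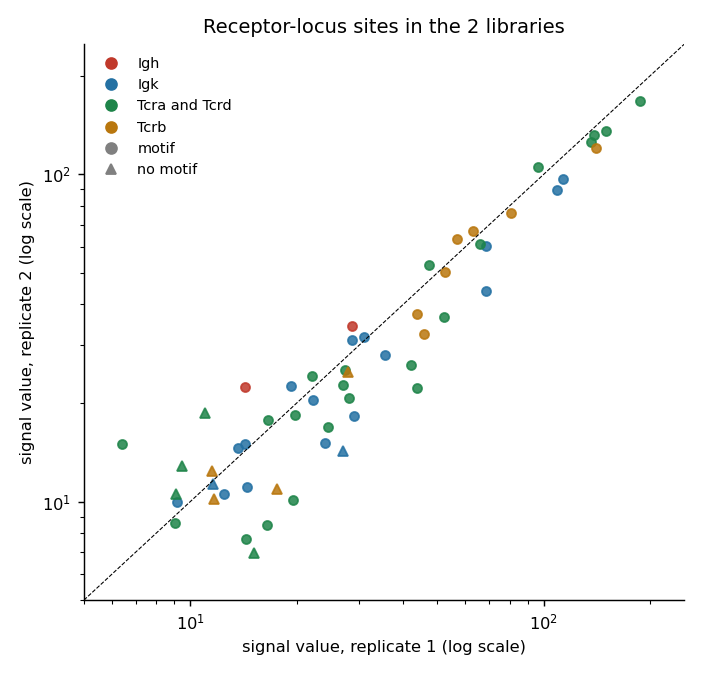
Signal values of the 57 members with a summit in both libraries, replicate 1 on the x axis and replicate 2 on the y axis (log scales, dashed line of equal values), coloured by locus; triangles lack the motif. Strong sites lie close to the line, and sites under about 20 scatter more.

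Weaker peaks filled some of the gaps. The pooled list had 237 summits in the windows, and 174 of them belonged to peaks outside the optimal list. Of those, 38 (21.8%) had a q-value of at most 0.05 and a summit in both libraries, against a background of 13.6% of all pooled peaks outside the optimal list, and 31 of the 38 had the motif. By locus they were 9 of 25 in Tcrb (36.0%), 16 of 47 in Igk (34.0%), 4 of 31 in Igh (12.9%) and 9 of 71 in Tcra and Tcrd (12.7%). Their signal values ran from 10.7 to 33.2. The Igh ones all lay at V segments: Ighv5-17 (19.4), Ighv2-3 (15.9), Ighv4-2 (14.6) and Ighv7-2 (12.2). One Tcrb peak, of 24.4, stood 3007 bp from Trbd1, the first D segment, with a minus-strand motif (11.2 in replicate 1 and 13.6 in replicate 2), and Tcra had peaks of 23.5 and 14.4 inside the J array, at Traj42 and Traj36.

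The receptor loci outside the windows were short and held few sites. The lambda light chain locus Igl had 0 sites in 0.199 Mb, which allows up to 18.5 per Mb (exact Poisson 95% limit), against 21.3 per Mb over the genome. The gamma chain locus Tcrg had 2 sites in 0.175 Mb, 11.4 per Mb, with an interval of 1.39 to 41.3 per Mb that holds the genome value. Their signal values were 30.2 (16.6 in replicate 1 and 13.8 in replicate 2) and 26.8 (16.1 and 9.04), and both motifs had 2 mismatches. The windows themselves were richer in soft-masked repeats than the genome, with 51.8% of bases in Igk, 44.4% in Igh, 41.6% in Tcrb and 39.7% in Tcra and Tcrd, against 35.4%, and the part of this in the densities was not tested.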

How the data were processed

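CTCF peaks on mm10 were deposited by the authors as 5 lists: 1 per library, 1 pooled, and an optimal and a conservative list that passed an IDR threshold. The replicate and pooled lists held 300000 peaks each. The authors' signal value and IDR score are scores of unstated scale, and −log10 of the q-value was deposited with each peak. Aligner, caller, control and read depth: not given in the sources used here. If reads that map to several places were dropped, values in repeated V segments would be lowered.

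Summits were placed from the deposited offsets, and 8 peaks on unplaced contigs were left out. Segments were those of GENCODE M21 (basic set). Motif matches with at most 1 mismatch were found over chromosomes 1 to 19, X and Y, and the 32 bases around each were counted in the genome. A replicate's value was that of its summit within 100 bp. Intervals are Wilson or exact Poisson at 95% and cover counting error only. No test was run, since there is 1 group. The scan found 100% of 2000 planted matches in simulated data. The windows, lists and motif were chosen with earlier results of these data known. Named were sites outside the V arrays, the strongest sites and those at the window edges, the V segments nearest to a summit, V families of 3 or more members, and, after their values were seen, the unbound Igh matches, the paralogous pairs, the Igh cluster past the C segments and single pooled peaks. Work used Python 3.11.15, numpy 2.4.6, pandas 2.3.3, scipy 1.17.1 and matplotlib 3.10.9. Alternatives are given in the closing section.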

Additional observations from a re-analysis of the deposited data

How the results depend on the processing

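No paired analysis was possible because there is 1 group. With the conservative list, either library alone or the annotated span of the segments, each locus kept its site count to within 1.5 times. The conservative list had more sites in Igh (3), Igk (22) and Tcrb (13) and fewer in Tcra and Tcrd (24). With the part of the optimal list at or above its median signal value, 0 sites remained in Igh, 5 in Igk, 10 in Tcra and Tcrd and 7 in Tcrb, with a median percentile of 36.6, the motif at 100% of sites, 14 of 17 motifs in the V-to-C direction and 6 V segments with a site. The median percentile was 38.1 with the conservative list and 40.7 to 43.0 with 1 library. The share with the motif was 41.7% at no more than 1 mismatch, 96.7% at no more than 3, 68.3% within 25 bp and 82.8% to 91.2% with 1 library, and 15 of 19 motifs ran in the V-to-C direction at no more than 1 mismatch. V segments with a site numbered 2 within 500 bp and 47 within 5 kb. For Igh motif matches, in alternatives chosen after seeing the data, 2 of 152 had a site in the conservative list, 0 among optimal peaks at or above that median, 15 in the pooled list, 1 with either library alone and 0 of 45 without a mismatch. Sites in repeated V segments are limited by the placing of reads, which was not tested, and weak sites by unknown depth.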
